A study of Mus musculus with 4 samples.

Results

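Neuroblasts and immature neurons were taken as the barcodes that held at least 1000 unique molecular identifiers (UMIs, each a counted RNA molecule), up to 15.8% mitochondrial UMIs, at least 8 UMIs of Dcx, Sox11, Dlx1 and Dlx2 together, under 8 UMIs of the cell cycle genes Mki67, Top2a, Cdk1, Birc5 and Cenpf, and at most 10 UMIs of the astrocyte genes Slc1a2, Aqp4 and Gja1. This gave 352 of the 36876 barcodes listed, 30941 of which were within the limits on UMIs and mitochondrial share. Whole brains of 4 C57BL/6J mice, each of a different age and diet combination, were dissociated and sequenced as single cells on the 10x droplet platform. Adult mice started the diets at 3 to 4 months of age and aged mice at 23 to 24 months, and all were fed for 8 weeks on a diet with 1% cellulose and either 0% or 5% inulin, a fermentable fiber. The methods give all mice as male. Brains were perfused, dissociated enzymatically and cleared of myelin and dead cells, so the cells are those that survived dissociation. Values of the 4 mice are given in the order adult 0% inulin, adult 5% inulin, aged 0% inulin, aged 5% inulin.

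In the adult rodent brain, neural stem cells of the subventricular zone give rise to dividing progenitors and then to neuroblasts, which migrate in chains along the rostral migratory stream to the olfactory bulb and become GABAergic interneurons there. The dentate gyrus of the hippocampus also makes neurons, which are glutamatergic. Dcx, a microtubule-associated protein of migrating neurons, and Sox11, a transcription factor of immature neurons, mark young neurons and do not separate the routes. Dlx1 and Dlx2, homeobox transcription factors of the GABAergic lineage, mark the first route.

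The members numbered 132, 135, 27 and 58, with 935773, 927092, 234618 and 456354 UMIs in all. Median UMIs per member were 5914, 6176, 6120 and 5417.5, median genes detected 2605, 2657, 2613 and 2398.5, and median mitochondrial shares 3.33, 3.34, 2.98 and 3.50%. Depth per cell was thus close in the 4 mice, while the summed UMIs of the aged 0% inulin mouse were the fewest. The libraries shared 192 barcode sequences. Only 2 members had one of these, and no sequence was shared by 2 members. Since the 4 genes of the rule chose the cells, their levels describe the members and were not tested against other cells.

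Dcx, Sox11, Dlx1 and Dlx2 were all detected in 294 of the 352 members (83.5%), and Dcx was at 0 in 5. Dcx reached 10.4, 10.8, 7.29 and 8.37 UMIs per 10000 UMIs of the class in the 4 mice, against a mean over mice of 0.165 in mature neurons and 0.00585 in astrocytes. Sox11 reached 25.3, 24.7, 18.6 and 19.7, against 0.0731 and 0.160. Dlx1, at 7.02, 6.53, 4.86 and 5.70, and Dlx2, at 3.58, 3.96, 3.45 and 4.03, were also near 0 in both other classes. A Dcx UMI was found in 98.1% of members on average and in 0.551% of astrocytes. Astrocytes were taken as barcodes within the limits with over 10 UMIs of the astrocyte genes and under 8 of the cell cycle genes. Both other classes also had to hold under 8 UMIs of the 4 genes of the rule together. Their low levels of these genes were thus set by the choice of cells. The label was checked on a marker outside the rule, Stmn1, a microtubule destabilizer of growing neurons which stood at 42.2, 43.4, 35.2 and 33.6 per 10000 in the members, with a mean of 4.68 in mature neurons and 0.646 in astrocytes.

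The sum of the 4 chosen genes had a median of 30, 29, 25 and 26.5 UMIs per member, well over the limit of 8. Just inside the limit, 6 members held 8 or 9 UMIs, with a median total of 2718.5 UMIs. Just outside, 18 barcodes held 6 or 7, with a median total of 2532.5 UMIs, and 15 of them carried at least 3 UMIs of interneuron-lineage genes. The other 346 members held at least 10 UMIs and had a median total of 5936. Cells near the limit were thus shallow, and few. The limit on astrocyte genes removed 9, 12, 8 and 4 barcodes that passed the neuroblast sum, and the limit on cell cycle genes 41, 40, 5 and 6.

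Among the 18 other genes of immature neurons, Stmn2 (17.4 per 10000 in the members on average, 2.21 in mature neurons) and Sox4 (30.1 in the members) were abundant, and Igfbpl1 stood at 9.01. Mki67 was at 0.0430 and Top2a at 0.0802 in the members, against 10.5 and 18.4 in the dividing cells that the limit on cell cycle genes had removed. The 16 genes of the mature neuron list together stood at 31.4, 29.4, 24.0 and 21.8 UMIs per 10000 in members, against 60.5, 84.8, 47.0 and 67.5 in mature neurons of the same mice, which were chosen by 3 genes of that list (at least 8 UMIs of Snap25, Syt1 and Snhg11). Its genes were not all low in members. Meg3, a long noncoding RNA, made up most of the sum at 21.7, 20.7, 19.1 and 16.5 per 10000, against 25.3, 37.7, 16.9 and 26.8 in mature neurons, while Rbfox3, which encodes NeuN, was seen in 3.03, 2.22, 0 and 1.72% of members and in 31.4, 37.5, 36.8 and 26.6% of mature neurons.

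**Figure D1:**
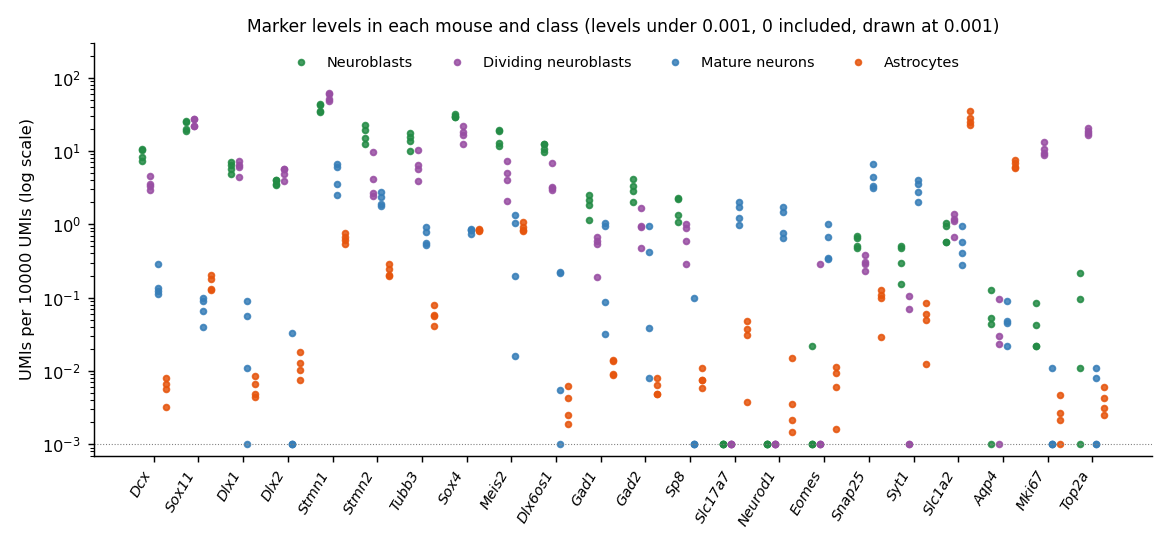
Levels of marker genes in neuroblasts, dividing neuroblasts, mature neurons and astrocytes, in UMIs per 10000 UMIs of the class, with 1 point per mouse on a log axis and 0 drawn at the dotted line. Dcx, Sox11, Dlx1 and Stmn1 sit high in neuroblasts, and the neuroblast genes chosen by the rule are shown as a description.

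The members carried genes of the GABAergic interneuron lineage. At least 3 UMIs of the 8 genes of the interneuron-lineage list together, among them Dlx5, Dlx6, Dlx6os1, Gad1, Gad2, Sp8 and Sp9, were found in 131 of 132, 135 of 135, 26 of 27 and 58 of 58 members. The share was 99.6% ± 0.536 (SD, n = 2) in the adult pair and 98.1% ± 2.62 (n = 2) in the aged pair, which overlapped (two-sided p = 1 by an exact permutation test). Thinned to 2000 UMIs, with at least 1 UMI of the list, the difference was -6.04 points and the ages did not overlap (p = 0.333 by the same exact test, the smallest it can give). Gad1 and Gad2, which make GABA, were at a mean of 1.91 and 3.07 per 10000, against 0.524 and 0.357 in mature neurons and 0.498 and 1.00 in dividing cells. Dlx6os1, a long noncoding RNA of the Dlx5 and Dlx6 locus, was at 11.4 in members and 4.03 in dividing cells. Meis2, a homeobox factor of olfactory bulb neurons, was at 15.5 in members and 4.58 in dividing cells. Levels of these genes were thus higher in the members than in the dividing cells next to them in the rule.

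Genes of glutamatergic neurons were nearly absent. Slc17a7, Slc17a6, Neurod1, Neurod2 and Neurod6 were at 0 in all 4 mice. No member held 3 or more UMIs of the 8 glutamatergic genes, and 0, 1, 0 and 2 members held any. A count of 0 allows a share of up to 2.27, 2.22, 11.1 and 5.17% of members with 3 or more such UMIs in the 4 mice, which limits detection at this depth and not the share of members that express these genes. Dlx1 and Dlx2 counted toward the sum of the rule, so cells of a lineage without them had to reach the limit on Dcx and Sox11 alone. Calb2 (calretinin) and Th (tyrosine hydroxylase), which mark olfactory bulb interneuron subtypes, were at 0.0430 and 0.00267 per 10000, against 3.82 for Calb2 in mature neurons. The members thus carried the genes of the lineage and hardly any Calb2 or Th. Calb1 was also rare, with a UMI in 0.749% of adult and 3.53% of aged members. Other genes of the olfactory bulb list were common. Etv1 had a UMI in 76.4% of adult and 76.5% of aged members, Slc32a1 in 39.7 and 34.1% and Synpr in 40.1 and 17.6%.

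The promoter of Dcx holds one match to TAATTA, the core that homeodomain proteins of the Dlx kind recognise in general. It is shown because Dcx is the best known gene of the rule and the Dlx factors are 2 of the others. The 250 bases before the first of its starts in RefSeq (build GRCm38.p6, minus strand) lie at chrX:143933220-143933469, and capitals mark the match. The GENCODE coordinates of the gene reach 143933311, so part of this stretch, with the match, lies within them.

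Dcx: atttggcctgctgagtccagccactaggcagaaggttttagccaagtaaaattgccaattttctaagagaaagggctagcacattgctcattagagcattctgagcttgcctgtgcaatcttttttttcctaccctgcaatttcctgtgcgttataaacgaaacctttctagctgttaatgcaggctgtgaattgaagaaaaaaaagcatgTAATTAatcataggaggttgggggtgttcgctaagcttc

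The letters TAATTA, which read the same on both strands, occur in 1590 of 32851 promoters of this length (4.84%) and in 1 of the 4 genes of the rule. Dcx itself lies on chromosome X at 143855842 to 143933311 (minus strand), Sox11 on chromosome 12 at 27334264 to 27342574, Dlx1 on chromosome 2 at 71528113 to 71533981 and Dlx2 on chromosome 2 at 71543408 to 71546754 in GRCm38. Dlx1 and Dlx2 are neighbours there. A match describes letters only, and binding was not measured.

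The design asks how the cells differed with age and with inulin. Members were 1.68% of the barcodes within the limits in the adult 0% inulin mouse (132 of 7875, exact 95% interval 1.40 to 1.98), 1.58% in the adult 5% inulin mouse (135 of 8566, 1.32 to 1.86), 0.407% in the aged 0% inulin mouse (27 of 6633, 0.268 to 0.592) and 0.737% in the aged 5% inulin mouse (58 of 7867, 0.560 to 0.952). Both adult mice lay above both aged mice. Adult mice averaged 1.63% ± 0.0708 (SD, n = 2) and aged mice 0.572% ± 0.233 (n = 2), with 1 mouse on each diet in either pair. The difference, aged minus adult, was -1.05 points, and the adult mean was 2.84 times the aged one. By an exact permutation test the two-sided p was 0.333, the smallest that 2 against 2 mice can give, so the design cannot pass 0.05. Intervals cover counting error only. Members per 100 astrocytes, 7.13, 6.75, 1.89 and 3.83, and per 100 mature neurons, 189, 141, 20.3 and 53.2, were both higher in adult mice. Astrocytes averaged 23.4% of the barcodes within the limits in adult and 20.4% in aged mice, and mature neurons 1.00 and 1.70%. A share can move with the recovery of other cells, which was not tested.

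**Figure D2:**
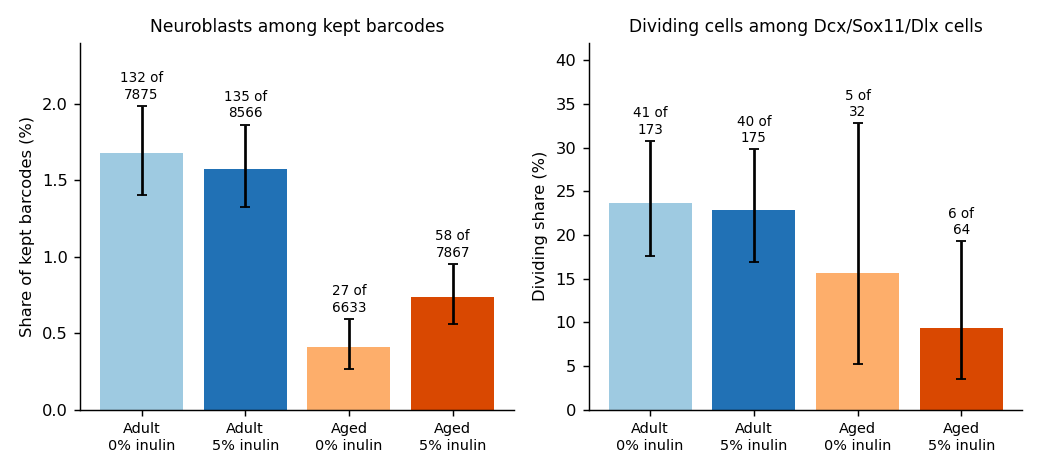
Bars give, for each mouse, the percent of barcodes within the limits that were neuroblasts (left) and the percent of dividing cells among dividing cells and neuroblasts (right), with exact 95% intervals of counting error. Neuroblast shares are 1.68 and 1.58% in the adult mice and 0.407 and 0.737% in the aged mice.

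Between the diets the shares overlapped. Mice on 5% inulin averaged 1.16% ± 0.593 (SD, n = 2) and mice on 0% inulin 1.04% ± 0.897 (n = 2). The difference was 0.115 points (two-sided p = 1, exact permutation test). In the adult pair the share was lower with 5% inulin and in the aged pair higher, and the difference between the pairs was not tested, with 1 mouse per condition.

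Dividing cells were a smaller part of the lineage in both aged mice. Cells that passed the neuroblast sum and held 8 or more UMIs of the cell cycle genes numbered 41, 40, 5 and 6, which is 23.7% (17.6 to 30.7), 22.9% (16.9 to 29.8), 15.6% (5.28 to 32.8) and 9.38% (3.52 to 19.3) of dividing cells and members together. The means, 23.3% ± 0.596 (SD, n = 2) for adult mice and 12.5% ± 4.42 (n = 2) for aged ones, were -10.8 points apart, aged minus adult, without overlap (two-sided p = 0.333, exact permutation test). Dividing cells held more RNA, with median UMIs of 15190, 16647.5, 16375 and 18794.5.

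Gene levels were compared between ages on UMI sums per mouse, in counts per 1000000 UMIs scaled by edgeR (CPM), with the 2 diets of each age together. Of 8578 genes tested, 12 were higher in aged members (0.14%) and 0 lower (0%), by edgeR's quasi-likelihood test with adjusted p under 0.05 and a change over 1.5-fold. For the direction with 0 calls, 873 genes in either direction had an unadjusted p under 0.05, and DESeq2 called 59 higher and 1 lower. They included genes of phagocytes (Spp1, Lpl, Lgals3, Ctsd, Clec7a, Ccl6), of granulocytes (S100a8, S100a9) and of the interferon response (Rtp4, Ifi27, Ifi27l2a). Spp1 stood at 0, 1.07, 540 and 656 CPM (117 and 276 UMIs in the aged mice), with a log2 change of 9.67 (edgeR adjusted p = 3.08e-04), which depends on the prior count since the gene was at 0 or 1 UMI in the adult mice. S100a8 stood at 29.1, 52.3, 4474 and 2001 CPM and Ctsd, a lysosomal protease, at 336, 462, 2159 and 1547. Ifi27 stood at 110, 115, 369 and 366 CPM, a log2 change of 1.70 ± 0.140 (SE; edgeR adjusted p = 0.00880). Its call was lost with interneuron-lineage members only (1.38, edgeR adjusted p = 0.150), with an upper limit of 22005 UMIs per barcode (1.84, edgeR adjusted p = 0.0801) and with no filter on low counts (1.62, edgeR adjusted p = 0.487), and kept in the other 12 alternatives. The interneuron-lineage alternative left out only 1 member of the adult 0% and 1 of the aged 0% inulin mouse. Both aged mice lay above both adult mice for all 12 called genes. None of the 12 belongs to the 18 other genes of immature neurons or to the genes of the rule.

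Most UMIs of several of these genes came from single barcodes. Of the S100a8 UMIs of the aged mice, 962 of 970 and 833 of 842 were in 1 barcode each, and of Spp1, a secreted protein of activated microglia, the top barcodes held 93 of 117 and 274 of 276 UMIs. The top barcodes held over 80% of the aged UMIs for 4 of the 12 genes and under 60% for 6. For Ifi27 they held 96 of 234 aged UMIs (41.0%). Spp1 had a UMI in 1 of 267 adult and 7 of 85 aged members, while Ifi27 had one in 87 and 56 (32.6 and 65.9%) and Rtp4 in 10 and 18 (3.75 and 21.2%). Lpl, Lgals3, Ccl6 and Clec7a, like Spp1, had UMIs in no more than 8 aged members, while S100a8 had them in 63 adult and 17 aged members and Ctsd in 138 and 58. The share of members with a UMI was larger in aged than in adult mice for Ifi27 and Rtp4, while S100a8 was not found in a larger share of aged members.

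**Figure D3:**
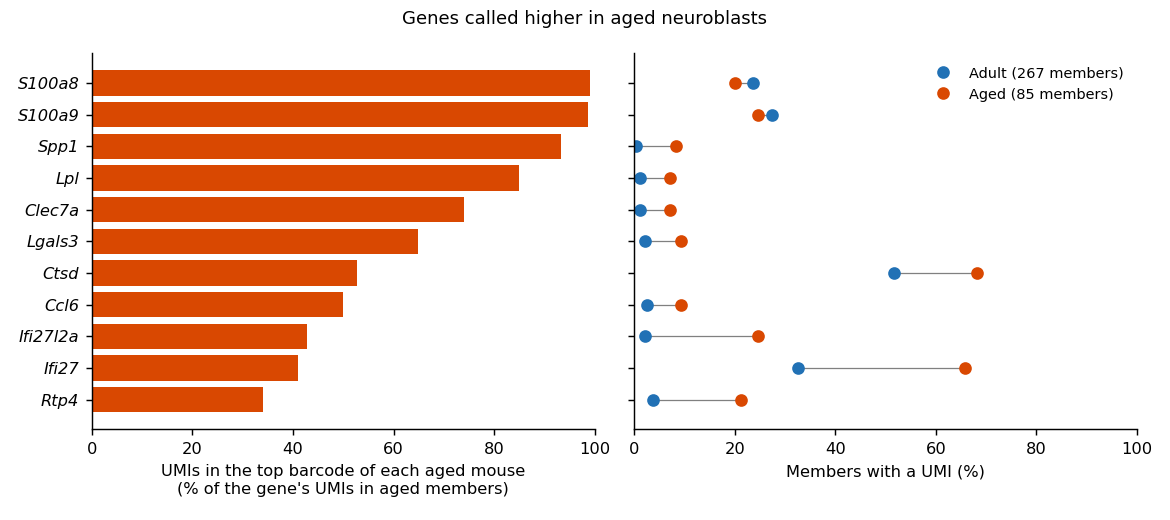
For genes called higher in aged members, bars give the percent of the aged UMIs that lay in the highest barcode of each aged mouse, and points the percent of 267 adult and 85 aged members with a UMI. S100a8 is at 99.1% in the highest barcodes and Rtp4 at 34.1%.

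Some members carried markers of other cell types. Those with at least 10 UMIs of the microglia, endothelial, mural or oligodendrocyte lists or of S100a8 and S100a9 numbered 10, 12, 6 and 10, or 7.58, 8.89, 22.2 and 17.2% of members, 38 in all (10.8%), and their median UMIs were 14010, 13083, 13212 and 13348, against 5768, 5919, 5819 and 5183 in the rest. All 9 genes of the microglia list, among them C1qa, C1qb, C1qc, Cx3cr1, P2ry12, Tmem119, Ctss and Csf1r, were tested and had positive estimates with age, a median of 1.63 on the log2 scale, with 0 of 9 called. Their sum was 6.65, 28.7, 93.9 and 35.4 UMIs per 10000, against 51.8, 54.6, 81.1 and 66.9 in all other barcodes, and 459 of 622, 2511 of 2662, 2141 of 2202 and 1535 of 1614 of these UMIs lay in members with 10 or more. Choroid plexus genes, led by Ttr, were at 228, 75.6, 31.5 and 327 per 10000 and Ttr was in every member. All other barcodes held 1403, 1117, 873 and 944. The highest barcode of each mouse together held 14808 of 26200 adult and 12120 of 14109 aged Ttr UMIs. Without the 38 members the choroid plexus genes were at 77.4, 82.7, 38.6 and 41.5 per 10000. Scrublet, a doublet caller, marked 6, 7, 0 and 3 members. The part of these cells' RNA in the age calls was not tested, but the comparison was repeated without the 38 members, a choice made after their values were seen.

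Without those 38 members, 314 were left (122, 123, 21 and 48), and of 7139 genes tested 6 were higher (0.084%) and 4 lower (0.056%) in aged members, and 2 of the higher genes, with Ifi27 one of them, were among the 12. Ifi27, an interferon-induced gene, stood at 62.7, 112, 516 and 245 CPM, a log2 change of 2.00 (edgeR adjusted p = 0.0156). Both aged mice lay above both adult mice, and Ifi27 was found in 29.8% of 245 adult and 62.3% of 69 aged members. Rbm3, a cold-inducible RNA-binding protein, rose by 1.08 (edgeR adjusted p = 0.00284) from 312 and 275 to 629 and 615 CPM. Fos, an immediate early gene, rose by 1.95 (edgeR adjusted p = 0.0491) from 39.5 and 59.9 to 307 and 126 CPM. Fos had a UMI in 35 of 245 adult (14.3%) and 13 of 69 aged members (18.8%). With the 38 members kept and members thinned as above, Fos was seen in 4.55, 11.3, 14.8 and 8.62%, and the ages overlapped. AC149090.1 and Igkc, an immunoglobulin gene, were also called higher. Igkc had only 2 UMIs in adult and 27 in aged mice with all members. Without the 38 members it was found in 2 of 245 adult and 16 of 69 aged members. Its call thus rests on few UMIs, and whether they came from RNA of other cells was not tested. S100a8 and S100a9 cannot be read here, since the exclusion used their UMIs.

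The 4 genes that fell without the 38 members were Pax6, Synpr, Enpp2 and Ttr. Pax6, a transcription factor of dopaminergic and other olfactory bulb interneuron precursors, stood at 162, 185, 52.4 and 47.3 CPM, a log2 change of -1.82 ± 0.277 (SE; edgeR adjusted p = 0.0140). Synpr, which encodes the synaptic vesicle protein synaptoporin, stood at 162, 157, 74.8 and 35.5 CPM, a log2 change of -1.69 ± 0.302 (SE; edgeR adjusted p = 0.0491). Both adult mice lay above both aged mice for Pax6 and Synpr. Enpp2 and Ttr belong to the choroid plexus list, whose RNA was in every member. With all members the changes were -2.02 for Pax6 (edgeR adjusted p = 0.0505; 139, 159, 46.1 and 30.9 CPM) and -1.78 for Synpr (edgeR adjusted p = 0.0714; 130, 133, 50.7 and 30.9 CPM), neither of them called. Pax6 lies on chromosome 2 at 105668900 to 105697364 and Synpr on chromosome 14 at 13284780 to 13616340. With every member thinned to 2000 UMIs, which left out 2 members of the adult 5% inulin mouse, Synpr was seen in 23.5, 22.6, 11.1 and 1.72% of members and Pax6 in 18.2, 24.8, 7.41 and 5.17%.

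**Figure D4:**
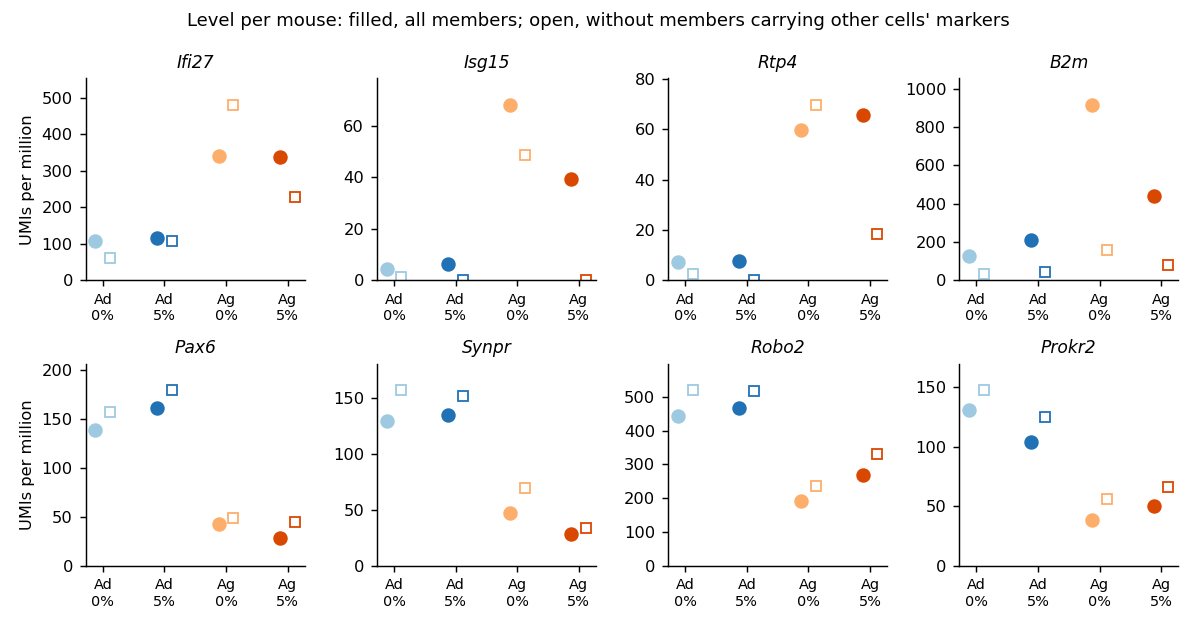
Levels of 8 genes in each mouse (Ad, adult; Ag, aged; 0 or 5% inulin), in UMIs per 1000000 UMIs of all members (filled) and without the 38 members (open). Pax6 and Synpr sit lower, and Ifi27 higher, in both aged mice than in both adult mice, B2m drops in every mouse without the 38 members, and Isg15 is then at 0 in the aged 5% inulin mouse.

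The 4 genes that chose the cells are given between the ages as a description only, since every member had to hold 8 of their UMIs. With all members, Dcx had a log2 estimate of -0.31 (1050, 1066, 789 and 908 CPM), Sox11 of -0.27, Dlx1 of -0.24 and Dlx2 of 0.12. Stmn1, which the rule did not use, had an estimate of -0.20 (edgeR adjusted p = 0.409) and was not called. Of the 18 other genes of immature neurons, 0 were called, 16 had negative estimates and 13 had both aged mice below both adult mice, with a median of -0.23, against 0.0087 over all genes tested, of which 1806 (21.1%) had no overlap and lower values. Stmn1, one of the most abundant of them, was at 4253, 4294, 3810 and 3643 CPM. Without the 38 members, 8 of the 18 had no overlap and lower values, against 20.3% of all 7139 genes, and the median was -0.08.

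Of 11 olfactory bulb genes tested, 9 had negative estimates, 8 of them without overlap, against 21.1% of all genes tested, with a median of -0.34 and 0 called with all members. Without the 38 members 10 were tested and 5 had no overlap and lower values, against 20.3% of all genes tested. The median was -0.26, and Synpr was called lower, against 0.056% of all genes tested. Meis2 stood at 1933, 1831, 1259 and 1395 CPM (-0.50, edgeR adjusted p = 0.117) and Tshz1, a transcription factor of olfactory bulb interneuron maturation, at 380, 373, 254 and 252 CPM (-0.58, edgeR adjusted p = 0.159). Of the 16 migration genes tested, 0 were called, 10 had negative and 6 positive estimates, and the median was -0.12. Without overlap of the ages, 5 were lower and 2 higher, against 21.1% and 21.7% of all genes tested. Without the 38 members 9 of 16 were positive and the median was 0.05, while 7 were lower and 2 higher without overlap, against 20.3% and 19.6% of all genes tested. Robo2, a Slit receptor, stood at 448, 462, 208 and 290 CPM (-0.85, edgeR adjusted p = 0.128), and Prokr2, the receptor for a chemoattractant that guides neuroblasts to the bulb, at 131, 103, 41.5 and 54.7 CPM (-1.23, edgeR adjusted p = 0.134). Robo2 and Prokr2 lay lower in both aged mice. Slit2, a ligand of Robo receptors, at 18.3, 16.0, 106 and 28.5 CPM (1.77, edgeR adjusted p = 0.367), and Nrp1, a semaphorin and VEGF receptor, at 10.8, 20.3, 32.3 and 64.2 CPM (1.72, edgeR adjusted p = 0.257), lay higher in both with all members. Of the Slit2 UMIs of the aged mice, 19 of 23 and 7 of 12 were in 1 barcode each, and without the 38 members Slit2 overlapped between the ages at 13.6, 20.4, 165 and 19.7 CPM. Nrp1 had UMIs in 18 adult and 12 aged members, and without the 38 members in 4 of 245 and 2 of 69. None of these passed the test, and all 4 were chosen after their values were seen.

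Genes of the interferon response and of MHC class I were higher in both aged mice. The summed level of the 18 genes of the list was 7.05, 10.0, 35.0 and 27.0 UMIs per 10000 in members, and 25.8, 34.4, 60.5 and 64.7 in all other barcodes. Without the 38 members it was 2.05, 3.07, 18.9 and 7.39. Microglia genes, which stood highest in the aged 0% inulin mouse, were at 1.86, 1.79, 3.83 and 2.44 per 10000 there. The part of RNA from other cells, whose interferon genes were also higher in aged mice, was not tested.

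Of the 18 genes, 17 passed the filter on low counts. Of these, 3 were called, Ifi27 and Rtp4 among them, against 0.14% of all genes tested. The median log2 change was 2.10, against 0.0087 over all genes tested. Genes with few adult UMIs passed the filter through the aged mice, so the number tested is a description. With no filter, all 18 had higher CPM in both aged mice than in both adult mice, and 16 of 18 without the 38 members, against 21.7% and 19.6% of the genes tested in the 2 comparisons. Those shares cover only genes that passed the filter, as 17 of the list did with all members and 10 without the 38 members. B2m, the light chain of MHC class I, stood at 128, 208, 992 and 475 CPM (2.10, edgeR adjusted p = 0.0967), and at 35.4, 46.3, 172 and 86.8 CPM without the 38 members (1.52, edgeR adjusted p = 0.133). Rtp4, a receptor transporter induced by interferon, stood at 7.54, 7.48, 64.6 and 71.3 CPM (3.16, edgeR adjusted p = 0.0349), and without the 38 members it had 2, 0, 10 and 5 UMIs and did not pass the filter. Isg15, a ubiquitin-like interferon target, stood at 4.31, 6.41, 73.8 and 42.8 CPM (3.32, edgeR adjusted p = 0.0714), and without the 38 members it was at 0 in the aged 5% inulin mouse. Levels of B2m, Rtp4 and Isg15, of which only Rtp4 was called with all members, thus depended on the 38 members to different degrees.

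In astrocytes all 18 were higher in aged mice by the same test, where 2.32% of 18657 genes were called higher, with a median of 2.07. No gene of the list passed the test of a different age effect in the 2 classes. That test recovered only 16 of 200 simulated 2-fold differences, so it cannot show equal effects. With every member thinned to 2000 UMIs, Ifi27 was seen in 10.6, 9.02, 29.6 and 31.0% of members and B2m in 8.33, 16.5, 29.6 and 34.5%. Ifi27 was seen in 36.1% of astrocytes on average at that depth. Ifi27 lies on chromosome 12 at 103434211 to 103440239 and Rtp4 on chromosome 16 at 23520291 to 23614222.

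**Figure D5:**
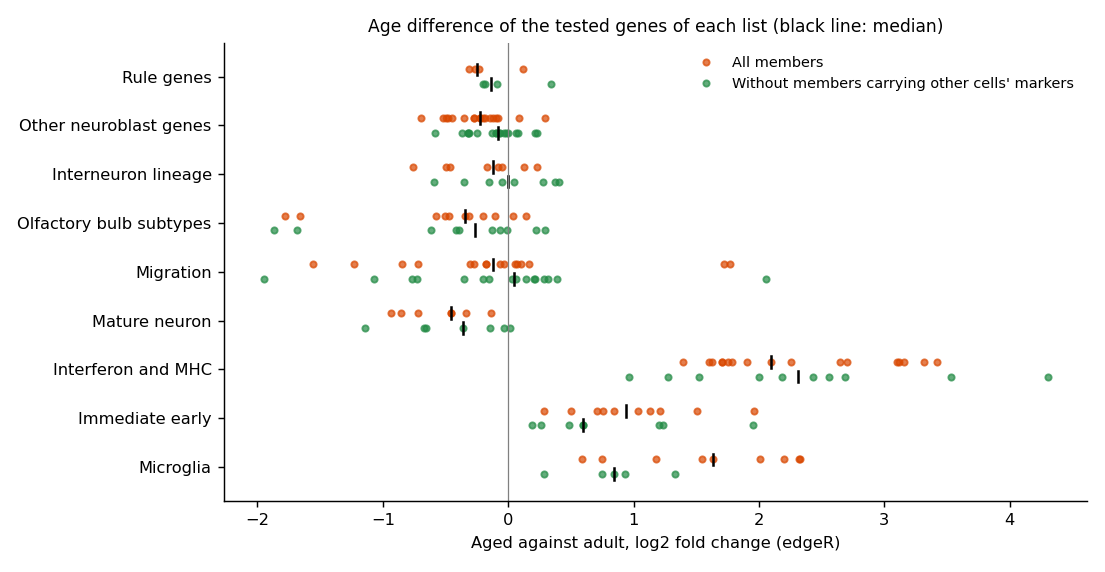
Log2 change with age of the genes of each list, with 1 point per gene tested, for all members (orange) and without the 38 members (green), and black lines at the medians. The interferon and MHC class I medians, 2.10 over 17 genes and 2.31 over the 10 that passed the filter without the 38 members, cover different genes and are not comparable; those of the other neuroblast genes are -0.23 and -0.08.

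Interferon targets often carry an element of the form GAAANNGAAA (N is any base; both strands were searched) in their promoters. It occurs in 978 of 32851 RefSeq promoters of 250 bases (2.98%). Of the 18 genes of the list, 15 were found in the table and 6 hold it: B2m, Isg15, Bst2, H2-T23, Ifit3 and Ifit1. A match is a description of letters, not of a bound site. The 3 promoters shown (GRCm38.p6, capitals mark the matches) belong to genes that hold the element and passed the filter with and without the 38 members. B2m lies at chr2:122147437-122147686 (plus strand), Bst2, which encodes tetherin, at chr8:71537473-71537722 and H2-T23, a nonclassical MHC class I gene, at chr17:36032702-36032951 (both minus strand).

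B2m: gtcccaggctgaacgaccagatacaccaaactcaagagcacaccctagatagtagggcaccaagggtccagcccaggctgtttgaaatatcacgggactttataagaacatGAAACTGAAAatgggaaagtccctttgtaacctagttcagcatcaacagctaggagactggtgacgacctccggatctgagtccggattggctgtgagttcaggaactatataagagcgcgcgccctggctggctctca
Bst2: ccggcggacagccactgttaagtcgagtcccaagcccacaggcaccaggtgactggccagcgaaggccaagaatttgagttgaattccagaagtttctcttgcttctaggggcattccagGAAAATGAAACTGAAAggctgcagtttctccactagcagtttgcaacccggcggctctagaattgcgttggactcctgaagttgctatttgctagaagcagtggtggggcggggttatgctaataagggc
H2-T23: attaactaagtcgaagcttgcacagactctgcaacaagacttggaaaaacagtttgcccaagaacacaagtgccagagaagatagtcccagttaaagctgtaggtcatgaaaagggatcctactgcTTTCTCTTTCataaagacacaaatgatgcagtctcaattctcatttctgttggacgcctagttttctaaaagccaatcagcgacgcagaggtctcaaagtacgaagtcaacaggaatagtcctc

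Bst2 stood at 30.2, 50.2, 120 and 375 CPM with all members (2.70, edgeR adjusted p = 0.108) and H2-T23 had a log2 estimate of 1.75 (edgeR adjusted p = 0.122), from 20, 38, 26 and 40 UMIs. Both were higher in both aged mice, and neither was called.

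Of the 10 immediate early genes tested, all had positive estimates and 7 had no overlap and higher values, against 21.7% of all genes tested, with a median of 0.94 and 0 called. Without the 38 members 8 were tested and 6 had no overlap and higher values, against 19.6% of all genes tested. The median was 0.60 and Fos alone was called, against 0.084% of all genes tested. Fos, which rises within minutes of stimulation or dissociation, stood at 45.3, 94.0, 304 and 119 CPM, and Egr1 at 119, 121, 221 and 209 CPM (0.84, edgeR adjusted p = 0.108). Of 7 mature neuron genes tested, all had negative estimates, against 4224 of all 8578 genes, and 5 were lower without overlap, against 21.1%, with a median of -0.46 and 0 called. Of 9 progenitor genes, 5 had positive estimates. Without overlap 1 was higher and 2 were lower, against 21.7% and 21.1% of all genes tested, and the median was 0.04 with 0 called. The 2 lower genes were Pax6, described above, and Sox2, a transcription factor of neural stem cells, at 454, 374, 235 and 290 CPM (-0.64, edgeR adjusted p = 0.234). Without the 38 members, Pax6 was the 1 gene called of 7 progenitor genes tested, against 0.056% of all genes tested called lower. Sox2 then had an estimate of -0.39 (edgeR adjusted p = 0.547). Of 6 Notch pathway genes 0 were higher and 1 was lower without overlap (median 0.01), and of 10 apoptosis genes 4 were higher and 1 was lower (median 0.14). Over all genes tested 21.7% were higher and 21.1% lower without overlap, and 0 were called in either list. Without the 38 members, 1 of 7 apoptosis genes was higher and 0 were lower (median 0.08), and 0 of 4 Notch pathway genes were higher or lower (median -0.19). Of the 78 ribosomal protein genes, 77 had positive estimates, against 4354 of all 8578 genes, and 70 were higher without overlap, against 21.7%, with a median of 0.24 and 0 called. Of the 78, 64 were higher without overlap once the 38 members were left out, against 19.6%, with a median of 0.21.

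For diet, edgeR called 0 of 8578 genes (0%; 136 genes had an unadjusted p under 0.05 and DESeq2 called 1). Cxcl12, a chemokine that endothelial cells and meninges make, had the smallest p of the genes with higher values on 5% inulin, at 39.9, 178, 41.5 and 290 CPM (log2 2.51, not called), and 104 of 167 UMIs of the adult 5% inulin mouse and 58 of 122 of the aged 5% inulin mouse lay in 1 barcode each. Mt3, a metallothionein, was lower at 257, 88.6, 208 and 78.4 CPM (log2 -1.48, not called). The 2 diets did not overlap for Mt3 or Cxcl12, and neither passed the test. The other genes with the smallest p were Eng, Cd34, Hist1h1c, H2-Aa and Prom1 with higher and Thrsp, Mdk, Lcorl, Slc1a2 and Ccn1 with lower values on 5% inulin. Slc1a2 is one of the astrocyte genes whose UMIs the rule limited, so its place is a description only, and Eng and Cd34 are genes of endothelial cells. The 8 endothelial genes had a diet median of 1.48 with 0 called, and members with 10 or more endothelial UMIs numbered 6, 6, 1 and 7. Their part in the diet values was not tested.

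Whether the age effect differed from that of astrocytes was tested in 1 model with mouse as a block. Of 18119 genes, 165 differed (0.911%) by adjusted p under 0.05, 131 more positive in members. Pax6 changed by -2.20 relative to astrocytes (edgeR adjusted p = 4.58e-06), which had 54.4, 69.8, 60.2 and 61.1 CPM, and Synpr by -2.30 (edgeR adjusted p = 2.07e-04). Those with the smallest p were S100a8, S100a9 and Retnlg, genes of granulocytes. The median difference over all genes was -0.17. With mature neurons as the other class, edgeR called 0 of 11898 genes (576 at an unadjusted p under 0.05). Without the 38 members, 50 of 17775 genes differed (0.281%), 27 of them among the 165. Of the 50, 35 were more positive in members and 15 more negative. The smallest p were those of S100a6 at 5.87, G0s2 at 2.90 and Igfbpl1 at 2.33. Gpr50 had the largest positive difference, 11.3. The negative ones included Pax6 at -1.91, Synpr at -2.11 and Robo2 at -1.04. Whether RNA of other cells remained in the members was not tested.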

How the data were processed

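The deposited values are UMI counts per gene and barcode, in 1 matrix per mouse, which the authors made with Cell Ranger 3.1.0 on GRCm38 (submitters' processing notes) and left unnormalized. Barcodes were kept with at least 1000 UMIs and up to 15.8% mitochondrial UMIs. Counts were summed per mouse over each class and tested with edgeR 4.0.16 (quasi-likelihood, TMM scaling, filterByExpr), with p-values adjusted by Benjamini-Hochberg across every tested gene. Genes were called at adjusted p under 0.05 and a change over 1.5-fold. The class comparison used adjusted p alone and mouse as a block. Each age held 1 mouse per diet and each diet 1 mouse per age, so p-values measure the spread between 2 mice. DESeq2 1.42.0, doublet calls by Scrublet (scanpy 1.11.5, expected rate 0.08), thinning to 2000 UMIs and other limits were alternatives; doublet calls were kept in. Shares have exact Clopper-Pearson 95% intervals. The scripts were tested on simulated sums in which 200 genes changed 2-fold. Between the ages edgeR recovered 56 of them (28%) and DESeq2 28 (14%). The class comparison recovered 16 of 200 (8%). A count of 0 calls thus does not show that no gene differed.

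The members and gene lists were chosen with earlier results of these data known. The text names the genes of the rule, up to 12 called genes per direction with age whose ages did not overlap, the 6 with the smallest p per direction for diet and class, and, of each list, called or abundant members. Robo2, Prokr2, Slit2, Nrp1, Sox2, Pax6, Synpr and the genes called without the 38 members were chosen after their values were seen. Some genes of the lists are not reported here by name. Coordinates are from GENCODE vM21, in which 55094 of 55573 listed identifiers were found.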

Additional observations from a re-analysis of the deposited data

Results flagged for a closer look

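The age effect differed between neuroblasts and astrocytes for 165 genes, by a test of the difference itself in edgeR with mouse as a block. The log2 age change of the members minus that of the astrocytes was 7.86 for S100a8, 7.78 for S100a9 and 7.67 for Retnlg (granulocyte genes), 2.86 for Apoe, 4.36 for S100a6 and 1.85 for Ctsd, a lysosomal protease. Of the S100a6 UMIs of the aged members, 163 of 194 and 91 of 99 lay in 1 barcode per mouse. The highest barcode of each aged mouse also held most of the aged UMIs of Retnlg (99.3%), Apoe (62.1%) and Ctsd (52.6%). The age change of Ctsd in members, 2.21 as reported, was as low as 0.49 in an alternative. In the other direction the difference was -2.20 for Pax6, -4.63 for H2-Ab1, an MHC class II gene, -1.68 for Mgp and -2.12 for Tm4sf1, both genes of vascular cells, -1.10 for Stmn2 and -2.30 for Synpr. Pax6 stood at 140, 154, 37.8 and 27.4 CPM in members on the scale of this comparison. Stmn2 stood at 1964, 2164, 1117 and 1427 CPM in members, with 22.1, 20.3, 30.1 and 26.1 CPM in astrocytes, where the gene is near background. H2-Ab1 in members was at 14.1, 120, 0 and 8.42 CPM, with the adult 5% inulin mouse alone high. Leaving out the members with other cells' markers left 50 genes that differed, and only 27 of them were among the 165. Pax6, Synpr and S100a6 were among those 27. Their causes were not tested.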

How the results depend on the processing

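The aged minus adult share stayed negative under every alternative run, between -0.889 and -1.47 points. The diet difference in share reversed without single mice and ranged from -0.520 to 0.750 points when each mouse was left out in turn (-0.304 without the adult 5% inulin mouse, -0.520 without the aged 0% inulin mouse); the interneuron-lineage difference ranged from -3.32 to 0.379 points when each mouse was left out, positive without the aged 0% inulin mouse, and was -6.04 points when thinned, with no overlap of the ages. Genes higher in aged members numbered 12 as reported, 59 with DESeq2, 0 with no filter on low counts (1114 at an unadjusted p under 0.05), 20 when thinned to 2000 UMIs, 62 without Scrublet calls, 55 without members carrying 10 UMIs of microglia, endothelial or oligodendrocyte markers, 6 without the 38 members (2 of them among the 12), and 93 to 214 when each mouse was left out (136 without the adult 0%, 214 without the adult 5%, 93 without the aged 0% and 176 without the aged 5% inulin mouse), all 12 kept each time. Fewer of the 12 were kept with diet as a covariate (7, of 12 called), with the upper limit on UMIs (4, of 13) and when thinned (5, of 20). Genes lower numbered 0 as reported, 1 with DESeq2, 1 when thinned, 3 with the upper limit on UMIs, 3 without Scrublet calls, 9 and 4 under the 2 marker exclusions and 6 to 46 with a mouse left out. Diet calls were 1 with DESeq2, 72 with no filter and 0 to 18 with a mouse left out. Class differences were 165 as reported, 0 with mature neurons as the other class, 16 when thinned, 50 without the 38 members and 98 to 348 with a mouse left out. S100a8 was at -1.02 without the 38 members, an exclusion that used its own UMIs and so fixed the change. Dlx2 was at -0.021 without the aged 5% inulin mouse and between -0.021 and 0.21 when each mouse was left out, and its highest value was 0.36, when thinned. A fit without 1 mouse leaves 1 mouse at that age, assumed to vary like the others. The causes were not tested. The planned exclusion that also used the choroid plexus list left 0 members, and the 2 exclusions by markers were added after seeing the data. No paired analysis was possible because each group holds 1 mouse and no replicate number links mice; the fit with diet as a covariate compared the ages within each diet. The limits are 1 mouse per condition, 27 members in the aged 0% inulin mouse and free RNA of other cells.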
